A study of Homo sapiens with 6 samples.

Results

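Nucleoporins and nuclear transport receptors were taken as 38 genes by symbol, 28 of them nucleoporins and 10 of them transport receptors or Ran cycle genes, out of 34738 genes in the expression table. All 38 had a row, and 37 passed the filter on low values, a mean of at least 1 FPKM (sequenced fragments scaled to transcript length and to library size) over the 6 libraries. NUP210 did not pass. Members were found in the table by gene symbol, and their levels in siGDF15 and NC libraries were compared.

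The cells were KHM-5M, a human thyroid cancer line. One group of 3 libraries, siGDF15, came from cells given a small interfering RNA against GDF15, a stress-induced cytokine, and the other 3, NC, from control cells. The sources differ on the control. The sample labels say only control, the deposited design speaks of a blank control, the methods of the paper speak of negative control cells and list a negative control siRNA, and elsewhere the paper speaks of vector control cells. If the NC cells got no siRNA, the transfection and the knockdown cannot be told apart. The paper also names a second line, TPC-1, for a display of these expression data, whereas every label names KHM-5M. One siRNA sequence against GDF15 is listed, so an effect on other transcripts cannot be told apart from that of GDF15, and the time from transfection to harvest is not given in the sources used here. Per the methods the 3 libraries of a group were biological replicates of 1 line, so the p-values speak for these samples.

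GDF15 itself was measured at 22.4, 19.3 and 23.1 FPKM in NC and 10.8, 10.5 and 10.7 FPKM in siGDF15, and every siGDF15 library lay below every NC library (log2 fold change -0.92, SE 0.0792, edgeR adjusted p = 2.4e-05). Total deposited counts ran from 67569576 to 68025163 in NC and from 51738814 to 67793417 in siGDF15, with siGDF15 replicate 2 the shallowest. Of the thyroid markers, PAX8 was at 59.1 ± 5.33 FPKM in NC and 79.4 ± 1.70 FPKM in siGDF15 and FOXE1 at 2.76 ± 0.208 and 2.83 ± 0.162 FPKM (SD, n = 3), whereas TG, SLC5A5 and NKX2-1 were at or near 0. Summed over the epithelial markers EPCAM, CDH1, KRT8, KRT18 and KRT19, levels were 102 to 149 FPKM in NC and 126 to 136 FPKM in siGDF15, most of it KRT18, while CDH1 was at 0.897 ± 0.294 FPKM in NC (SD, n = 3). Of other lineages, 4 endothelial markers summed to 0.0888 to 0.191 FPKM in NC and 0.125 to 0.198 FPKM in siGDF15, 5 fibroblast markers, with COL1A1, COL1A2, LUM and PDGFRB above 1 FPKM on average, to 16.6 to 22.5 and 17.3 to 20.5 FPKM, ranges that overlapped, and leukocyte markers to 17.7 to 19.4 and 16 to 18 FPKM, of which CD68 alone passed 1 FPKM and PTPRC was near 0. Mitochondrially encoded genes took 6.39 to 6.78% of counts in NC and 8.53 to 9.17% in siGDF15, and with these genes left out before scaling 32 of the 37 tested genes were still lower, 1 was higher and the median log2 fold change was -0.54.

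The nuclear pore complex is the channel through which RNA, protein and ribosomal subunits cross the nuclear envelope. Stacked rings of scaffold nucleoporins are anchored in the membrane and hold a central channel of nucleoporins rich in phenylalanine-glycine repeats, with filaments on the cytoplasmic face and a basket on the nuclear face. Importins carry cargo in and exportins carry it out, and both read the gradient of GTP-bound Ran, made by RCC1 on chromatin and dissipated by RANGAP1 with RANBP1 and RANBP2 in the cytoplasm. The complexes are built anew as cells grow and are taken apart and rebuilt at each mitosis.

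Promoter sequences are shown for 4 of the lower genes, KPNA2, CSE1L, NDC1 and NUP58, and for SEC13, the one member that was higher. They are the reference sequence of RefSeq, build GRCh38.p14, from 250 bases before to 50 bases after the annotated start, written 5′ to 3′ on the gene's strand, and capitals mark the letters of a searched motif on either strand. The windows were chr17:68035485-68035784 (plus strand), chr20:49046062-49046361 (plus strand), chr1:53838247-53838546 (minus strand), chr13:25301375-25301674 (plus strand) and chr3:10321063-10321362 (minus strand).
KPNA2: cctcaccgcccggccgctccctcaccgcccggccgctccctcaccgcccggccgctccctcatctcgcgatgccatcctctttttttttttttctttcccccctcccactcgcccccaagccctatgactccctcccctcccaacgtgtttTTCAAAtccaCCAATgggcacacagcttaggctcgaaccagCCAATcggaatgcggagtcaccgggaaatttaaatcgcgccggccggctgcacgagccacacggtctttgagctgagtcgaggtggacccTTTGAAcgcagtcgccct
CSE1L: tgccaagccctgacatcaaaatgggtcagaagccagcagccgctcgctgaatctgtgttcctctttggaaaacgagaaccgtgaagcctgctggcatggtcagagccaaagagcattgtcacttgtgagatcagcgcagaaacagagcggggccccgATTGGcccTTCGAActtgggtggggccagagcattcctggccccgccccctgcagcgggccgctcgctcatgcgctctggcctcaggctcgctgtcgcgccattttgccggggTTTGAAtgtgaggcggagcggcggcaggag
NDC1: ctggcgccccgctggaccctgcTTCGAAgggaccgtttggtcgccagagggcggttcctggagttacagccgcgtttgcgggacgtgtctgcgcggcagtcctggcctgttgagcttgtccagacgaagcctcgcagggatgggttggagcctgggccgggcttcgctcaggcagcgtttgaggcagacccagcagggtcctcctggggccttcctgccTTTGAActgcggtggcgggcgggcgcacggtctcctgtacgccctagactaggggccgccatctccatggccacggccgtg
NUP58: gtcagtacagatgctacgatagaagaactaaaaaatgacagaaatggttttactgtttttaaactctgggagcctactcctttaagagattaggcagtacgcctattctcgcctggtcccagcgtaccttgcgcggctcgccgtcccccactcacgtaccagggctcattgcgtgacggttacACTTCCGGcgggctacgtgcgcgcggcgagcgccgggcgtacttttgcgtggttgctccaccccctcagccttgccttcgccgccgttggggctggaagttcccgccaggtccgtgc
SEC13: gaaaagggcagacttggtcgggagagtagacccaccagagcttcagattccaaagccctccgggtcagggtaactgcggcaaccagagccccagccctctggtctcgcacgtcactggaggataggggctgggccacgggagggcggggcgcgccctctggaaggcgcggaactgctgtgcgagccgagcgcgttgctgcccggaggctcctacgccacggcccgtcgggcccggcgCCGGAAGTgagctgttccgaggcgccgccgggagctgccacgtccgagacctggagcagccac
In the KPNA2 window CCAAT stood at -89 and -58 from the start and a CHR match (cell cycle genes homology region, here TTTGAA or TTCGAA) at -99 and 33. CSE1L held 1 CCAAT match at -93 and CHR matches at -85 and 21, and NDC1 held CHR matches at -228 and -31 and no CCAAT. NUP58 and SEC13 each held the ETS letters CCGGAAGT once, at -67 and -13, and no CCAAT or CHR letters. None of these matches overlapped another. A match is a run of letters and not a shown binding site. The 4 lower genes shown were picked with their values known and not by fold change alone. IPO5 and NUP107 had lower fold changes than CSE1L, and their windows held no CHR letters. Of the 35 members with a window 10 held CHR letters (28.6%). NUP43 and RANBP1, at log2 fold changes of -1.08 and -1.02, had no promoter entry.

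RNA of the pore and its carriers was lower in siGDF15 as a group. Of the 37 tested genes 32 were lower at an adjusted p under 0.05 (edgeR quasi-likelihood test with Benjamini-Hochberg adjustment), where 31.4% of all 11867 genes tested were lower. SEC13 alone was higher, where 30.0% of all genes tested were higher, and 4 genes, SEH1L, POM121, RANBP2 and IPO7, did not pass the test. With total counts in place of TMM factors (trimmed mean of M-values, which scale libraries to each other), a choice that moved the median of all genes to -0.099, SEH1L, POM121 and IPO7 passed as lower, at -0.21, -0.18 and -0.15. The median log2 fold change was -0.54 over the 37 genes and 0.003 over all genes tested. In bulk RNA a lower level per cell and fewer cells with the RNA cannot be told apart, and RNA per cell was not measured.

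In FPKM, all 3 siGDF15 libraries were below all 3 NC libraries for 35 of the 37 genes, which held for 42.8% of all genes tested, and above them for SEC13, which held for 25.6%. RANBP2 was the one tested gene whose groups overlapped. FPKM carry no TMM scaling, unlike the counts behind the calls, so the measures differ in scale and FPKM lean towards lower values in siGDF15. Steps were mostly modest. The study's threshold, an adjusted p under 0.05 with a log2 fold change of at least 1 either way, was passed downwards by KPNA2, NDC1, NUP58, NUP43 and RANBP1, that is 5 genes, where 4.78% of all genes tested passed it. IPO5 at -0.996 and NUP107 at -0.987 fell just short of it. NC replicate 2 was the lowest NC library for 33 of the 38 genes, against 35.3% of all genes tested. Without it 33 genes were lower and 8 passed the threshold, as IPO5, NUP107 and CSE1L joined, and without NC replicate 3 the latter number was 4, as RANBP1 dropped out.

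**Figure D1:**
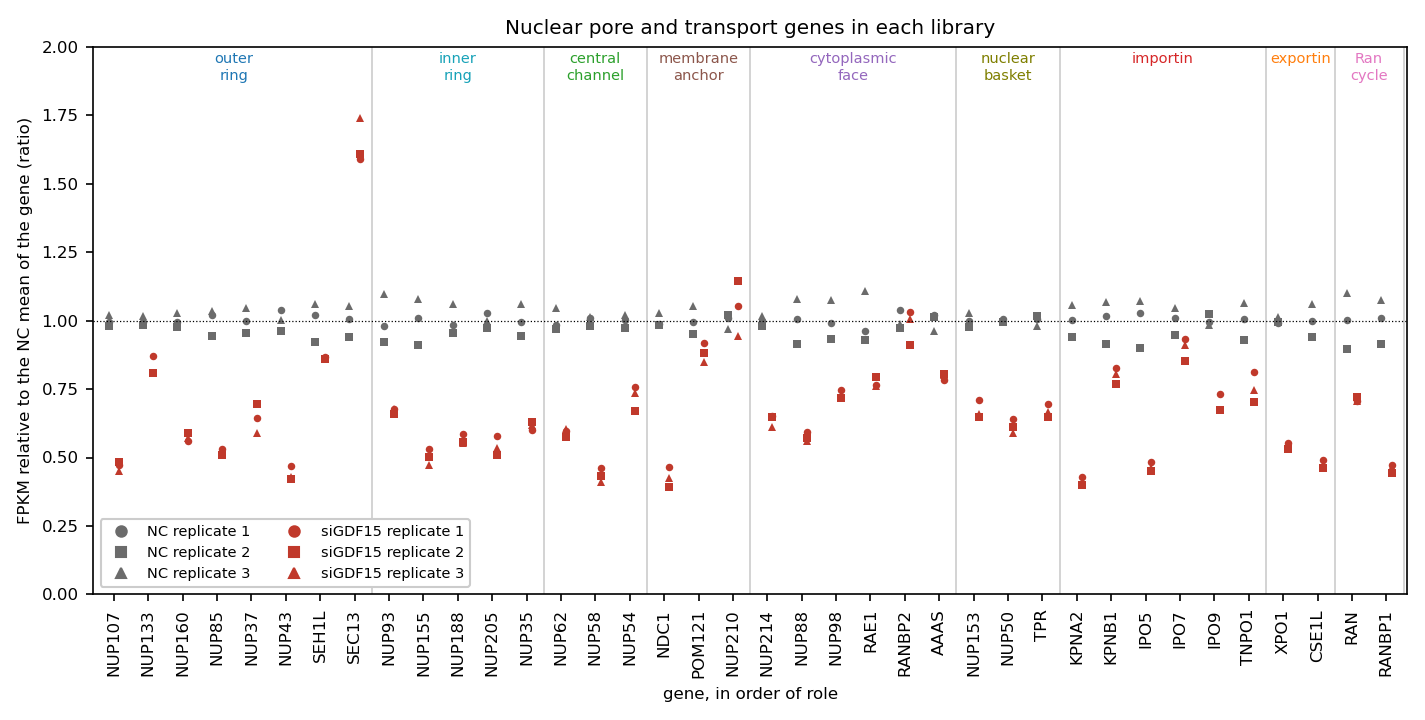
Level of each gene in the 3 NC and 3 siGDF15 libraries, by position in the pore or role in transport, with 1 point per library. SEC13 rises from 12.0 to 13.4 FPKM in NC to 20.3 to 22.2 FPKM in siGDF15, while the points of KPNA2 drop from 53.9 to 60.7 FPKM to 22.9 to 24.7 FPKM.

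The outer rings of the pore are built from the Y complex, also called the NUP107-NUP160 complex, of which 8 members were tested. Of these 6 were lower, 1 was higher and 1 did not pass, where 31.4% of all genes tested were lower and 30.0% higher. Their median log2 fold change was -0.61. NUP43, a peripheral β-propeller of the Y, was at 21.2, 19.6 and 20.4 FPKM in NC and 9.54, 8.58 and 8.71 FPKM in siGDF15 (log2 fold change -1.08, SE 0.0579, edgeR adjusted p = 2.0e-06). NUP107, at the stem of the Y, was at 11.8, 11.6 and 12.1 FPKM in NC and 5.59, 5.71 and 5.30 FPKM in siGDF15 (log2 fold change -0.99, SE 0.0528, edgeR adjusted p = 2.0e-06). For both, the highest siGDF15 library was well below the lowest NC library. NUP85, a scaffold in an arm of the Y, was at 14.7, 13.6 and 14.9 FPKM in NC and 7.63, 7.30 and 7.55 FPKM in siGDF15 (log2 fold change -0.83, SE 0.0559, edgeR adjusted p = 6.2e-06). NUP160, which forms the opposite arm, was at 8.75, 8.59 and 9.02 FPKM in NC and 4.91, 5.17 and 5.02 FPKM in siGDF15 (log2 fold change -0.70, SE 0.0521, edgeR adjusted p = 1.1e-05). NUP37, which docks on NUP160, was at 10.2 ± 0.474 FPKM in NC against 6.59 ± 0.558 FPKM in siGDF15 (SD, n = 3, log2 fold change -0.53). The groups did not overlap for any of these 3 either, where 42.8% of all genes tested had every siGDF15 library below every NC library. NUP133, at the end of the stem, changed least among the genes called, at 14.2, 14.0 and 14.5 FPKM in NC and 12.4, 11.5 and 11.5 FPKM in siGDF15 (log2 fold change -0.17, SE 0.0478, edgeR adjusted p = 0.016). Its call was lost without NC replicate 1, siGDF15 replicate 2 or siGDF15 replicate 3, at log2 fold changes of -0.17, -0.15 and -0.14.

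The Y complex also holds SEC13 and SEH1L, 2 β-propellers that serve elsewhere in the cell: SEC13 in the COPII coat of vesicles leaving the endoplasmic reticulum, and both in the GATOR2 complex upstream of mTORC1. SEC13 (ENSG00000157020, chr3:10293131-10321112) was at 12.8, 12.0 and 13.4 FPKM in NC and 20.3, 20.5 and 22.2 FPKM in siGDF15, a fold of 1.77 (log2 fold change 0.82, SE 0.0607, edgeR adjusted p = 1.0e-05). The 3 siGDF15 libraries were all above the 3 NC libraries, opposite to every other Y complex gene that passed the test. Relative to the median FPKM of the other 7 Y complex genes in the same library, SEC13 stood at 1.09, 1.04 and 1.11 in NC against 3.07, 2.87 and 3.68 in siGDF15, a ratio chosen for display after its values were seen. SEH1L was at 6.37, 5.75 and 6.62 FPKM in NC and 5.42, 5.36 and 5.38 FPKM in siGDF15, lower in every siGDF15 library in FPKM, yet did not pass the test after TMM scaling (log2 fold change -0.11, SE 0.0633, edgeR adjusted p = 0.17). Without NC replicate 2 it passed, at -0.17.

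All 5 inner ring genes were lower, with a median log2 fold change of -0.72, and no group overlapped. Of all genes tested 31.4% were lower, and 42.8% had every siGDF15 library below every NC library in FPKM. NUP155, which links the inner ring to the membrane, was at 8.76, 7.92 and 9.39 FPKM in NC and 4.62, 4.35 and 4.09 FPKM in siGDF15 (log2 fold change -0.89, SE 0.0778, edgeR adjusted p = 2.5e-05). NUP205 and NUP188 are large paralogous α-solenoids of the ring. NUP205 was at 21.9, 20.7 and 21.2 FPKM in NC and 12.3, 10.9 and 11.3 FPKM in siGDF15 (log2 fold change -0.78, SE 0.0530, edgeR adjusted p = 6.6e-06). NUP188 was at 32.7, 31.8 and 35.3 FPKM in NC and 19.5, 18.5 and 18.4 FPKM in siGDF15 (log2 fold change -0.72, SE 0.0548, edgeR adjusted p = 1.2e-05). Of the paralogs, NUP188 was the more abundant in every library. NUP35, a membrane-binding linker, was at 5.76 ± 0.343 FPKM in NC against 3.55 ± 0.0900 FPKM in siGDF15 (SD, n = 3, log2 fold change -0.59, edgeR adjusted p = 1.8e-04). NUP93, the hub that recruits the channel proteins, was at 8.82 ± 0.783 FPKM in NC against 5.92 ± 0.0898 FPKM in siGDF15 (SD, n = 3, log2 fold change -0.47, edgeR adjusted p = 4.6e-04), the smallest step of the ring.

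The central channel trimer was lower in all 3 of its genes, by unequal amounts, where 31.4% of all genes tested were lower. NUP58 (ENSG00000139496, chr13:25301524-25342421) was at 8.69, 8.44 and 8.72 FPKM in NC and 3.97, 3.71 and 3.53 FPKM in siGDF15 (log2 fold change -1.10, SE 0.0549, edgeR adjusted p = 1.5e-06). NUP62 was at 21.7, 21.4 and 23.1 FPKM in NC and 13.1, 12.6 and 13.3 FPKM in siGDF15 (log2 fold change -0.65, SE 0.0485, edgeR adjusted p = 1.1e-05). NUP54 was at 3.85, 3.74 and 3.93 FPKM in NC and 2.92, 2.57 and 2.83 FPKM in siGDF15 (log2 fold change -0.37, SE 0.0589, edgeR adjusted p = 8.0e-04). The 3 proteins form 1 coiled-coil bundle in the pore, and their RNAs ended at 0.467, 0.636 and 0.776 of the NC level. The 95% intervals of the log2 fold changes, -1.22 to -0.97 for NUP58 and -0.50 to -0.23 for NUP54, did not overlap, though the difference between genes was not tested.

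Membrane nucleoporins split. NDC1 (ENSG00000058804, chr1:53765478-53838463), a multi-pass protein that anchors the pore in the envelope, had the lowest fold change of all nucleoporins, at 19.2, 19.1 and 20.0 FPKM in NC and 9.08, 7.61 and 8.30 FPKM in siGDF15 (log2 fold change -1.12, SE 0.0653, edgeR adjusted p = 3.0e-06). Its RNA ended at 0.460 of the NC level, with the groups far apart. POM121, the other tested anchor, was at 9.93, 9.51 and 10.5 FPKM in NC and 9.19, 8.79 and 8.48 FPKM in siGDF15 and did not pass the test (log2 fold change -0.07, SE 0.0570, edgeR adjusted p = 0.28). Reads of POM121 can be shared with its near copies POM121C and POM121B, which did not pass either, at log2 fold changes of 0.05 and 0.23, so its value is uncertain. NUP210, the glycoprotein of the pore's lumenal ring, was barely present, at 0.373, 0.378 and 0.358 FPKM in NC and 0.390, 0.423 and 0.348 FPKM in siGDF15, with overlapping groups. When the filter was loosened to 0.1 FPKM or dropped, its log2 fold change was 0.14 (edgeR adjusted p = 0.45) or 0.11 (edgeR adjusted p = 0.60).

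On the cytoplasmic face 5 of 6 genes were lower, where 31.4% of all genes tested were lower. The face had the smallest median of any group of nucleoporins, -0.31. NUP88, which with NUP214 forms the platform for mRNA export, was at 6.55, 5.95 and 7.04 FPKM in NC and 3.87, 3.71 and 3.66 FPKM in siGDF15 (log2 fold change -0.69, SE 0.0704, edgeR adjusted p = 5.8e-05). NUP214 was at 5.30, 5.20 and 5.39 FPKM in NC and 3.46, 3.43 and 3.23 FPKM in siGDF15 (log2 fold change -0.54, SE 0.0479, edgeR adjusted p = 2.7e-05). NUP98, a repeat nucleoporin found on both faces, was at 13.7, 12.9 and 14.8 FPKM in NC and 10.3, 9.90 and 9.99 FPKM in siGDF15 (log2 fold change -0.35, SE 0.0592, edgeR adjusted p = 0.0011). These 3 did not overlap between groups, where 42.8% of all genes tested had every siGDF15 library below every NC library. RAE1, the partner of NUP98 in mRNA export, was at 12.0 ± 1.14 FPKM in NC against 9.26 ± 0.219 FPKM in siGDF15 (SD, n = 3) and passed more narrowly (log2 fold change -0.27, SE 0.0755, edgeR adjusted p = 0.015). The call of RAE1 was lost without siGDF15 replicate 1 or 3, at -0.25 in both cases. AAAS, also named ALADIN, which binds NDC1, was at 9.63 ± 0.302 FPKM in NC against 7.68 ± 0.110 FPKM in siGDF15 (SD, n = 3, log2 fold change -0.22, SE 0.0548, edgeR adjusted p = 0.0082). RANBP2, the large filament protein that binds Ran and acts as a SUMO ligase, was at 4.68, 4.38 and 4.45 FPKM in NC and 4.64, 4.11 and 4.53 FPKM in siGDF15. Its groups overlapped and it did not pass (log2 fold change 0.08, SE 0.0533, edgeR adjusted p = 0.22), and the sign turned to -0.02 with total counts in place of TMM factors and to -0.02 and -0.03 in limma fits of log2(FPKM + 1) and log2(FPKM + 0.1). RANBP2 shares sequence with the RGPD genes, of which RGPD5, RGPD6 and RGPD8 were higher at 0.46, 0.38 and 0.32 on the log2 scale (edgeR adjusted p = 0.0017, 0.013 and 0.0058) and at most 1.58 FPKM on average, so that reads may be split between them.

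The nuclear basket was lower in all 3 genes, where 31.4% of all genes tested were lower. NUP50, a mobile basket protein that helps release importin cargo, was at 15.4, 15.2 and 15.3 FPKM in NC and 9.80, 9.39 and 9.05 FPKM in siGDF15 (log2 fold change -0.60, SE 0.0459, edgeR adjusted p = 1.3e-05). TPR, the coiled-coil backbone of the basket, was at 22.7, 23.0 and 22.1 FPKM in NC and 15.7, 14.6 and 15.0 FPKM in siGDF15 (log2 fold change -0.47, SE 0.0423, edgeR adjusted p = 2.9e-05). NUP153, its anchor at the ring, was at 20.5, 20.1 and 21.2 FPKM in NC and 14.7, 13.4 and 13.6 FPKM in siGDF15 (log2 fold change -0.47, SE 0.0497, edgeR adjusted p = 7.8e-05). NUP50 had the tightest NC libraries of all 38 genes, with a coefficient of variation of 0.627%. In none of the 3 genes did the groups overlap, where 42.8% of all genes tested had every siGDF15 library below every NC library. The largest coefficient of variation in NC, 10.2%, was that of RAN.

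**Figure D2:**
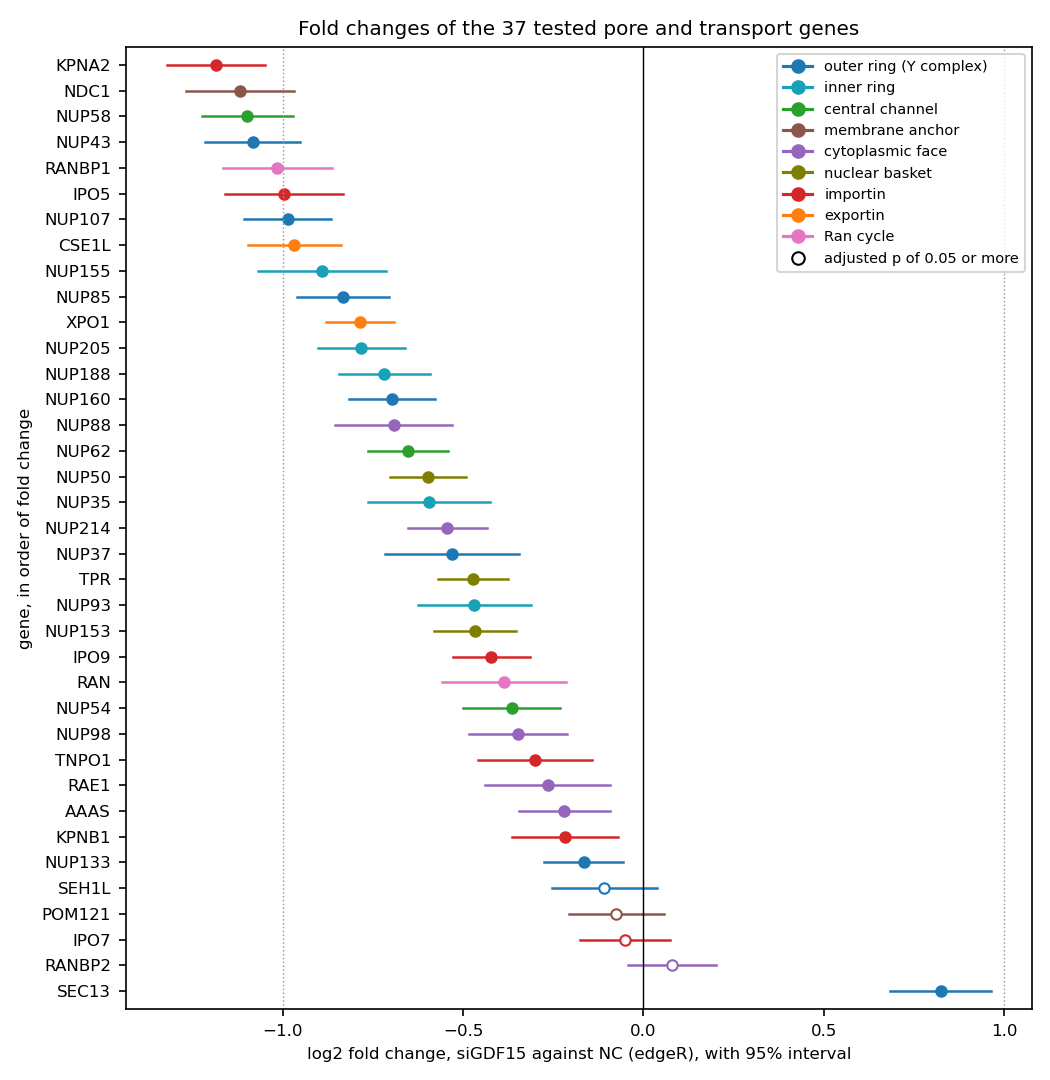
Log2 fold change of siGDF15 against NC for each tested gene with its 95% interval and role. Open circles mark genes that did not pass the test and dotted lines the study's threshold. SEC13 at 0.82 is the only gene right of 0 that passed the test, as RANBP2 at 0.08 did not. NUP43, NUP58, NDC1, KPNA2 and RANBP1 lie left of -1.

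Among importins 5 of 6 were lower, where 31.4% of all genes tested were lower, with a wide spread from -1.19 to -0.05. KPNA2 (ENSG00000182481, chr17:68035636-68047364), an importin alpha that binds the classical nuclear localization signal, had the lowest fold change of all 37 genes, at 57.6, 53.9 and 60.7 FPKM in NC and 24.7, 22.9 and 22.9 FPKM in siGDF15 (log2 fold change -1.19, SE 0.0593, edgeR adjusted p = 1.5e-06), a fall of 56.0%. Its partner KPNB1, importin beta, which carries the alpha-cargo complex through the pore, was at 56.5, 50.9 and 59.4 FPKM in NC and 46.0, 42.8 and 44.7 FPKM in siGDF15, a small step (log2 fold change -0.22, SE 0.0635, edgeR adjusted p = 0.017). In KPNB1 the lowest NC library was above the highest siGDF15 library, but the call was lost without NC replicate 1, siGDF15 replicate 2 or siGDF15 replicate 3, at log2 fold changes of -0.21, -0.20 and -0.22.

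IPO5, a carrier of ribosomal proteins and histones, was at 35.7, 31.2 and 37.2 FPKM in NC and 16.8, 15.7 and 16.1 FPKM in siGDF15 (log2 fold change -0.996, SE 0.0711, edgeR adjusted p = 8.7e-06). IPO7, which carries ribosomal proteins and pairs with KPNB1 for linker histone, was at 42.1, 39.5 and 43.6 FPKM in NC and 38.9, 35.6 and 38.0 FPKM in siGDF15 and did not pass (log2 fold change -0.05, SE 0.0541, edgeR adjusted p = 0.44). The sign of IPO7 turned to 0.003 when libraries were scaled to the same median. IPO9, a histone carrier, was at 21.6 ± 0.468 FPKM in NC against 15.0 ± 0.744 FPKM in siGDF15 (SD, n = 3, log2 fold change -0.42, SE 0.0468, edgeR adjusted p = 9.6e-05). TNPO1, or transportin, which carries RNA-binding proteins with a proline-tyrosine signal, was at 18.02 ± 1.23 FPKM in NC against 13.6 ± 0.995 FPKM in siGDF15 (SD, n = 3, log2 fold change -0.30, SE 0.0687, edgeR adjusted p = 0.0052). Of these carriers of ribosomal proteins, IPO5 ended at 0.501 and IPO7 at 0.965 of the NC level.

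KPNA2 is 1 of 7 importin alpha genes, and its share of their summed FPKM was 52.2, 51.1 and 53.3% in NC against 31.98, 31.6 and 31.4% in siGDF15. The means were 52.2% ± 1.13 and 31.6% ± 0.307 (SD, n = 3), and the groups did not overlap. The other importin alpha genes together held 52.7, 51.6 and 53.2 FPKM in NC against 52.5, 49.6 and 50.0 FPKM in siGDF15. The share was computed after the level of KPNA2 had been seen, so it is given as a description. Among the other family members, KPNA3 was at 19.2, 18.4 and 19.9 FPKM in NC and 16.5, 15.1 and 15.0 FPKM in siGDF15 (log2 fold change -0.20, SE 0.0567, edgeR adjusted p = 0.014) and KPNA6 at 15.6, 15.2 and 14.9 FPKM in NC and 17.2, 16.1 and 16.9 FPKM in siGDF15 (log2 fold change 0.24, SE 0.0426, edgeR adjusted p = 0.0014). KPNA5, close to the filter, was at 0.820, 0.892 and 0.721 FPKM in NC and 1.46, 1.36 and 1.38 FPKM in siGDF15 (log2 fold change 0.89, SE 0.0939, edgeR adjusted p = 7.2e-05), while KPNA1 and KPNA4 did not pass, at 0.10 and 0.07.

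**Figure D3:**
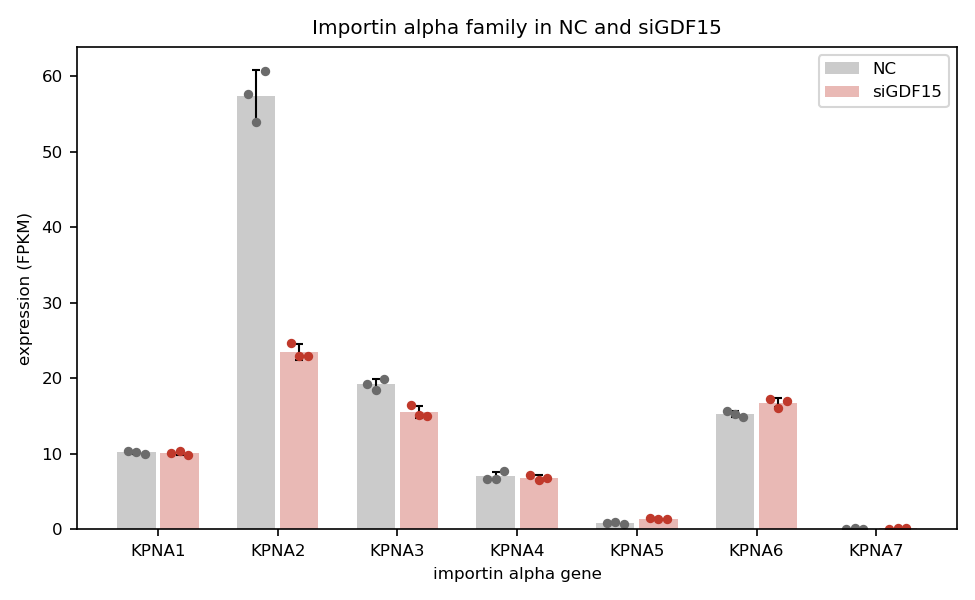
FPKM of the importin alpha genes in the 3 NC and the 3 siGDF15 libraries. KPNA2 falls from 51.1 to 53.3% of the summed FPKM in NC to 31.4 to 31.98% in siGDF15, while the other genes together hold 49.6 to 53.2 FPKM.

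Both exportins were lower, where 31.4% of all genes tested were lower. CSE1L (ENSG00000124207, chr20:49046246-49096960), the exportin that returns importin alpha to the cytoplasm, was at 86.6, 81.4 and 91.8 FPKM in NC and 42.5, 39.9 and 41.0 FPKM in siGDF15 (log2 fold change -0.97, SE 0.0563, edgeR adjusted p = 3.0e-06), beside -1.19 for its cargo KPNA2. XPO1, or CRM1, the general exportin for leucine-rich export signals, was at 14.6, 14.7 and 15.0 FPKM in NC and 8.19, 7.81 and 7.86 FPKM in siGDF15 (log2 fold change -0.79, SE 0.0414, edgeR adjusted p = 1.9e-06). In both genes the libraries of a group lay close together and the groups far apart. RAN, the GTPase that sets the direction of transport, was the most abundant of the 38 RNAs per length, at 117, 105 and 129 FPKM in NC and 82.5, 84.1 and 82.6 FPKM in siGDF15, with a smaller fold change (log2 fold change -0.39, SE 0.0749, edgeR adjusted p = 0.0022). RANBP1, the cofactor that helps RANGAP1 release Ran from exported complexes, was at 39.3, 35.6 and 41.9 FPKM in NC and 18.4, 17.3 and 18.05 FPKM in siGDF15 (log2 fold change -1.02, SE 0.0657, edgeR adjusted p = 5.2e-06). The processed copy RANP1 was at most at 4.68 FPKM, and reads of RAN may be split with it. As whole genes, introns included, RANBP1 overlaps the antisense gene TRMT2A over 1455 bases, NUP43 overlaps PCMT1 over 223 bases, POM121 overlaps NSUN5P2 over 3860 bases and NUP88 overlaps RABEP1 over 26673 bases. RABEP1 averaged 11.02 FPKM over the 6 libraries against 5.13 FPKM for NUP88, and NSUN5P2 averaged 4.04 FPKM against 9.41 FPKM for POM121. NUP62 overlaps IL4I1 over 22715 bases on the same strand, so strand does not part their reads, and antisense ATF5 over 1063 bases. IL4I1 averaged 0.848 FPKM and ATF5 11.4 FPKM against 17.5 FPKM for NUP62. Further overlaps are not listed here. The libraries keep strand, but whether counting used it is not given in the sources used here.

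Genes of both classes, nucleoporins and transport genes, were mostly lower, where 31.4% of all genes tested were lower and 30.0% higher. Of 27 tested nucleoporins 23 were lower, 1 was higher and 3 did not pass, with a median log2 fold change of -0.54 and a range from -1.12 to 0.82. Of 10 transport genes 9 were lower, none was higher and IPO7 did not pass, with a median of -0.60 and a range from -1.19 to -0.05. The difference of the medians, transport minus nucleoporins, was -0.061, of the order of its spread between replicates (SD 0.0486), and without siGDF15 replicate 2 it was 0.003. Of all genes tested, the lowest 10% had a log2 fold change of -0.68 or less, and 10 of 27 nucleoporins and 5 of 10 transport genes were in that range. Summed FPKM of the transport genes over that of the nucleoporins was 1.39, 1.33 and 1.43 in NC against 1.31, 1.30 and 1.31 in siGDF15. The siGDF15 ratios were all below the NC ratios, the nearest being 1.33 against 1.31. Such sums weigh abundant genes most, such as RAN at 117 FPKM and CSE1L at 86.6 FPKM on average in NC. The nucleoporin sum also holds SEC13, which was higher, so the ratio does not speak for the typical gene of a class. No test of the classes was made, since genes of 1 list are not replicates.

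**Figure D4:**
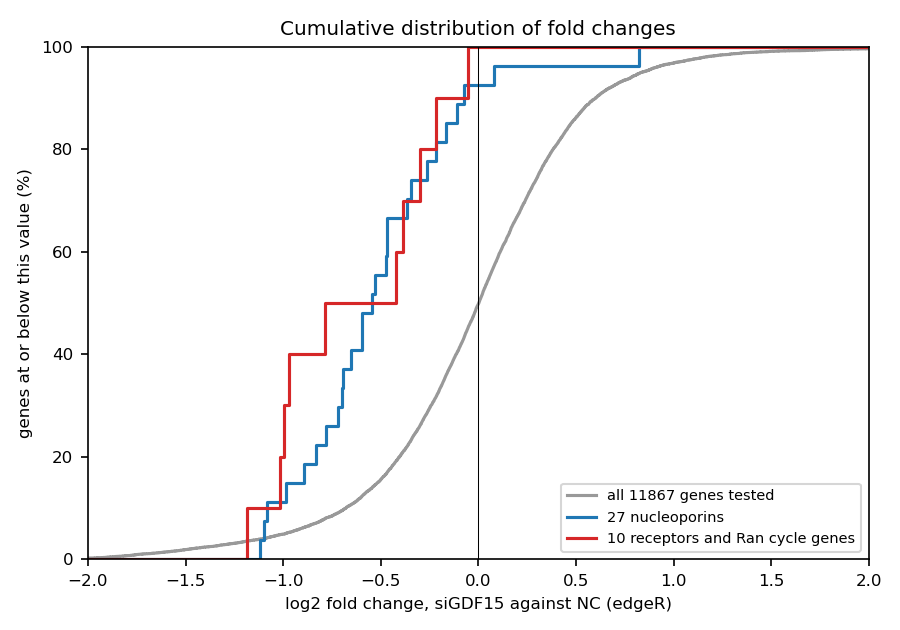
Cumulative share of genes against log2 fold change for nucleoporins, transport genes and all genes tested. Both sets lie to the left of all genes tested, with medians of -0.54 and -0.60 against 0.003, and overlap each other.

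Outside the 38 genes, a list of 36 other nuclear transport genes, 34 of them tested, was also lower more often than higher. In it 19 were lower (55.9%), 5 were higher (14.7%) and 10 did not pass, with a median log2 fold change of -0.21. Of all genes tested 31.4% were lower and 30.0% higher. XPOT, the exportin of transfer RNA, was at 40.4, 40.0 and 40.6 FPKM in NC and 12.1, 11.3 and 11.4 FPKM in siGDF15 (log2 fold change -1.69, SE 0.0445, edgeR adjusted p = 2.8e-07), a lower fold change than that of any of the 37 tested genes. RCC1, the chromatin-bound exchange factor of Ran, was at 31.6 ± 4.25 FPKM in NC against 13.7 ± 0.977 FPKM in siGDF15 (SD, n = 3, log2 fold change -1.10, SE 0.1003, edgeR adjusted p = 3.3e-05). RANGAP1, the activating protein at the other end of the Ran cycle, was at 35.5, 31.8 and 42.0 FPKM in NC and 19.9, 20.0 and 20.0 FPKM in siGDF15 (log2 fold change -0.76, SE 0.0944, edgeR adjusted p = 1.8e-04). The other 2 Ran cycle genes of the list, RANBP3 and RANGRF, which bind Ran, did not pass, at -0.05 and -0.14 (edgeR adjusted p = 0.42 and 0.22). For RCC1 and RANGAP1 NC replicate 2 was again the lowest of its group. In mRNA export the adaptor ALYREF and the export factor subunit NXT1 were lower, at -0.82 and -0.63 (edgeR adjusted p = 5.0e-04 and 5.8e-04), whereas the RNA helicases DDX19A and DDX19B, which release mRNA at the cytoplasmic face, were higher, at 0.39 and 0.44 (edgeR adjusted p = 0.0013 and 3.1e-04). DDX19A and DDX19B are close paralogs, so reads may be split between them. NMD3, the exportin adaptor of the large ribosomal subunit, passed at 0.15 (edgeR adjusted p = 0.029), but its call was lost in 9 of 16 alternatives, which included leaving out NC replicate 1 or 2 or siGDF15 replicate 1 or 3.

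Sequence features that took no part in choosing the genes were set beside the fold changes. A promoter entry matched 35 of the 38 genes. CCAAT, on either strand, was in 16 of these 35 windows (45.7%) and in 34.6% of 35116 RefSeq promoters of the same length. CHR letters were in 10 (28.6%) against 16.4%, ETS letters in 6 (17.1%) against 4.14%, NRF1 letters, GCGCA followed directly by TGCGC, in 3 (8.57%) against 1.24%, and E2F letters, TTTGGCGC, TTTCGCGC, TTTCCCGC or TTTGCCGC, in 2 (5.71%) against 3.32%. Of tested genes with a window, the 16 with CCAAT had a median log2 fold change of -0.64 and the 18 without it -0.38, and the 10 with CHR letters had -0.56 against -0.51 in the other 24. The medians with and without the letters were -0.65 and -0.47 for NRF1, -0.48 and -0.54 for ETS and -0.47 and -0.54 for E2F, so for ETS and E2F the median with the letters was the higher one. The NRF1 letters were in NUP107, NUP62 and NUP50, all lower, and the 6 windows with ETS letters were all of nucleoporins, among them SEC13 and POM121. No test was made of these differences. Each member gave 1 window, whereas the comparison set held every promoter entry, whether or not its gene was tested here, so the shares are not of like sets. A window need not lie at the gene start of the deposited table. That of NUP35, with CCAAT, CHR and ETS letters, began at chr2:183124193 and the gene at 183117513.

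Phenylalanine-glycine pairs, counted as adjacent codons in the GENCODE 29 coding sequence, were most numerous in NUP214 with 44, NUP98 with 41, NUP153 with 29, POM121 with 24, RANBP2 with 22 and NUP58 with 14. These 6 genes with at least 10 pairs had a median log2 fold change of -0.41 and 4 of them were lower. Of the other 21 tested nucleoporins 19 were lower, with a median of -0.60, where 31.4% of all genes tested were lower. The boundary of 10 pairs was set after the values were seen. Within the 6, NUP58 at -1.10 and RANBP2 at 0.08 marked the ends. The count does not allow for protein length. RANBP2 had 0.682 pairs per 100 codons, while NUP54, with 9 pairs, had 1.78 and NUP62, with 6 pairs, had 1.15. The boundary therefore does not part repeat-rich nucleoporins from the others.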

How the data were processed

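Poly(A) RNA of 3 NC and 3 siGDF15 libraries was sequenced as stranded read pairs of 150 bases. The submitters' processing notes name fastp, HISAT2, StringTie, edgeR and GRCh38. Their versions, order and options and the strand setting of counting are not given in the sources used here. The authors deposited FPKM, scaled by transcript length and library. The expected counts that the authors deposited beside them are unnormalized whole numbers, and whether 1 count is 1 read is not given in the sources used here. The total count of every library was above the average depth in reads that the paper states, so a count may be less than a read.

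Expected counts, taken as whole numbers, were tested with edgeR 4.0.16 in R 4.3.3 (quasi-likelihood, TMM scaling, two-sided, group as the only term) over the 11867 genes whose FPKM averaged 1 or more. P-values were adjusted by Benjamini-Hochberg over all of these. Standard errors came from the fold change and its F statistic. Alternatives were DESeq2 1.42.0, limma 3.58.1 on log2(FPKM + 1) and log2(FPKM + 0.1), other scalings and filters, a replicate block and each library left out. The procedure was tested on simulated data in which a small part of the genes changed, as many up as down. That simulation cannot speak for the scaling where many genes change, as here. The smallest two-sided p of an exact permutation test of 3 against 3 is 0.1, so none was used. Replicates differed by more than sampling noise, in a comparison made on counts scaled down by a fixed factor, so none was taken as a duplicate.

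The 38 genes and the other lists were chosen with earlier results of these data known. The text names every listed gene, GDF15, near-identical copies, and up to 5 other nuclear transport genes in each direction with the largest fold changes past the test. Importin alpha genes beyond these were named after their values were seen. RANBP3 and RANGRF were also named outside that rule, as the other Ran cycle genes of their list. Coordinates are those of the deposited table (GRCh38). All 38 genes matched GENCODE 29 in chromosome and strand, and 27 shared a start or end with it. Promoters came from RefSeq. Intervals are 95% confidence intervals of the log2 fold change, from its standard error and a t quantile. They rest on the spread between libraries of a group and do not give the range of the libraries.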

Additional observations from a re-analysis of the deposited data

How the results depend on the processing

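Over 16 alternatives no fold change of a called gene and no median of the 38 genes turned sign. The number of lower genes ran from 29 to 35, with SEC13 higher in every fit that held it. Leaving out 1 library gave 29 to 33 lower genes. With RAE1, SEC13 and AAAS, which also work outside the pore, left out, 21 nucleoporins were lower and, since SEC13 was the only higher one, 0 were higher by construction. SEH1L, which also works outside the pore, was kept, so the set left out was incomplete. Total counts without TMM moved the median of all genes tested to -0.099, so the medians below carry that shift: -0.65 for the 38 genes, -0.65 for nucleoporins, -0.71 for transport genes and -0.31 for other transport genes, with 8 genes at or under -1. With limma on log2(FPKM + 0.1) the median of all genes tested was -0.0997 and the others were -0.63, -0.63, -0.70 and -0.31, also with 8 genes. With limma on log2(FPKM + 1) other transport genes were at -0.30 and all genes at -0.081. Scaling to the same median gave -0.49 for nucleoporins, -0.16 for other transport genes and 0.057 for all genes. SEH1L, POM121 and IPO7 passed as lower without TMM and in both limma fits, and NUP133 and KPNB1 no longer passed under the same median. A mean FPKM of at least 0.1 put all genes at 0.013, and no filter put them at 0.073 with 8 genes at or under -1. Without 1 library, the number at or under -1 ran from 4 to 8, the median of other transport genes from -0.23 to -0.15, and the difference of medians from -0.075 to 0.0032. The cause of these moves was not tested beyond the construction of each setting. Replicate numbers are shared between the groups, but deviations of same-numbered libraries correlated at only 0.028, -0.075 and 0.046, so the numbers were not read as pairs. With the replicate block 32 genes were lower, 23 of them nucleoporins and 9 transport genes, 1 was higher and the median was -0.54. NUP210 was left untested by the FPKM filter.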

Other observations

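Since SEC13 stood apart from the rest of the Y complex, the other 2 complexes that hold it were looked up after its value was seen, so their values are descriptions. Of 12 COPII coat genes, which bend membrane at endoplasmic reticulum exit sites, 6 were higher, 1 was lower and 5 did not pass, where 30.0% of all genes tested were higher and 31.4% lower, with a median log2 fold change of 0.24. SEC31A, which forms the outer coat with SEC13, was higher at 0.94 (SE 0.0420, edgeR adjusted p = 9.2e-07). The cargo adaptors SEC24A, SEC24C and SEC24D and the inner coat gene SEC23A were higher at 0.74, 0.38, 0.52 and 0.40, as was SEC31B at 0.54, close to the filter (edgeR adjusted p = 3.5e-05, 0.00016, 0.0003, 0.00039 and 0.028). PREB, the exchange factor that starts coat assembly, was lower at -0.33 (edgeR adjusted p = 0.008), and the small GTPases SAR1A and SAR1B did not pass, at -0.11 and -0.14. SEC23B and SEC24B, paralogs of the higher SEC23A and SEC24 genes, did not pass either, at -0.02 and 0.10, nor did SEC16A, at -0.05.

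GATOR2, the mTORC1 regulator that shares SEC13 and SEH1L with the pore, was mixed in its other genes. MIOS was lower at -0.48 and WDR59 higher at 0.24 (edgeR adjusted p = 0.0016 and 0.032), and WDR24 did not pass, at 0.15 (edgeR adjusted p = 0.14). Thus the RNA of SEC13 moved the way of SEC31A and against most genes of the pore. What set these directions was not tested.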
